A study of Mus musculus with 12 samples.

Results

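Arginine and polyamine metabolism was followed through 10 named genes out of the 55421 in the deposited count table: Arg1, Arg2, Nos2, Ass1, Asl, Odc1, Slc7a2, Srm, Sms and Sat1. The genes were listed by their place in the pathway, with no threshold on a measured value, but the list was drawn up when Arg1 was already known to be higher in knockout libraries after recovery. The Arg1 levels are therefore a description, and no p-value is given for any Arg1 comparison that uses recovery libraries. All 10 were counted and all 10 passed the filter on low counts. The libraries came from mouse microglia, the macrophages that live in the brain tissue, and the mice were labelled male and postnatal day 35 to 40 (30 to 45 in the protocol). Brains were dissociated with papain, and cells were enriched on a density gradient and sorted. Every group carried Cx3cr1EGFP, a reporter allele that marks microglia and also other Cx3cr1-expressing macrophages and monocytes. The groups labelled WT carried that allele alone (genotype Cx3cr1EGFP), and the KO groups carried Slc2a5-/-::Cx3cr1EGFP, in which the gene of the fructose transporter GLUT5 is deleted. All cells went through 6 h of culture without oxygen and glucose (oxygen-glucose deprivation, OGD), which models ischaemia, and were taken at its end (the groups WT-OGD and KO-OGD) or after 24 h of recovery (the groups WT-recovery and KO-recovery), with 3 libraries in each of the 4 groups. No group without OGD was analysed here. WT-recovery replicate 1 was grouped by its title, since its treatment field names no recovery. Nothing in the labels said that replicates were separate animals or cultures, so p-values measure only the spread between these libraries, which may be technical.

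Arginine stands at a branch point of macrophage metabolism. Nitric oxide synthases turn it into nitric oxide and citrulline, and argininosuccinate synthase and lyase rebuild arginine from citrulline. Arginases split it into urea and ornithine, from which ornithine decarboxylase starts the polyamine chain of putrescine, spermidine and spermine. In mouse macrophages Arg1 is a classic transcript of alternative activation and Nos2 of classical activation, and polyamines are needed for growth and for hypusination, the modification of the translation factor eIF5A.

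Promoter sequences are shown for 4 of the 10 genes, the only members held in the RefSeq table of build GRCm38.p6 that was used. They are Ass1 and Odc1 at the entry to citrulline recycling and to polyamine synthesis, and Sms and Sat1 at the end of the polyamine chain. Each window runs 5′ to 3′ from 250 bases before the transcript start to 50 after it. Capitals mark the E-box CACGTG, the letters bound by MYC and MAX among other factors, and the GC box GGGCGG, on either strand (CCGCCC where the box lies on the other strand).
Ass1, chr2:31470020-31470319, plus strand: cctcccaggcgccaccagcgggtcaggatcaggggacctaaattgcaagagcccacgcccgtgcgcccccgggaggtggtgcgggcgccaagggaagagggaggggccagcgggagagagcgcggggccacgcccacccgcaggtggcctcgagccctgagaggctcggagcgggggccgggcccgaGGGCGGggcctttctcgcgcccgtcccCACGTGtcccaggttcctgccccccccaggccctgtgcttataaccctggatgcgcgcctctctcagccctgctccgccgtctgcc
Odc1, chr12:17544623-17544922, plus strand: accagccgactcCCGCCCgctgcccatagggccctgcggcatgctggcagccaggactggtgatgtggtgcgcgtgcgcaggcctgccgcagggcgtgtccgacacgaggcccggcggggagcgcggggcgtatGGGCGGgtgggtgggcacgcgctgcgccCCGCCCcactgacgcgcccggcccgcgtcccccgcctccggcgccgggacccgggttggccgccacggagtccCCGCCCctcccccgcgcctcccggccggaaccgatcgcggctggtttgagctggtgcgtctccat
Sms, chrX:157492238-157492537, minus strand: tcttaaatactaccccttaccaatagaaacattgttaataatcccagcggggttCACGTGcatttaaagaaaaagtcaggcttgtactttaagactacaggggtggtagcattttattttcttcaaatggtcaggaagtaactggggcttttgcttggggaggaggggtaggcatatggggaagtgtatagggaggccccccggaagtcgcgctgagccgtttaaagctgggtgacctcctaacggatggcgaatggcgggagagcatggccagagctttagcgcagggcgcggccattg
Sat1, chrX:155216400-155216699, minus strand: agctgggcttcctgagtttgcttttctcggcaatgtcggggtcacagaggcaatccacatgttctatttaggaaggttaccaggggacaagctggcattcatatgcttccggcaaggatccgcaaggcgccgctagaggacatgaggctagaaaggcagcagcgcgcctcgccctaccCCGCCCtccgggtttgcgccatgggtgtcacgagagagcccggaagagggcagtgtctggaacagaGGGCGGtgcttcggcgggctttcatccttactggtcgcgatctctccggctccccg
The Ass1 window held 1 E-box and 1 GC box, the Odc1 window 4 GC boxes, the Sat1 window 2 GC boxes and the Sms window 1 E-box. The second Sms start in the table, which is not printed, had 4 GC boxes. Of all 32851 promoter windows of that length, 7.15% held the E-box and 35.7% the GC box on either strand. The core of the hypoxia response element, ACGTG, which overlaps the E-box, was found in the Ass1 and Sms windows within the E-box alone, on both of its strands since CACGTG is a palindrome, and in 19.6% of all windows. GC content was 74.0% in the Ass1 window, 78.0% for Odc1, 60.3% for Sat1 and 50.3% for the printed Sms window. These matches describe the letters only.

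Total counts per library were 31509859 to 45347118 after OGD and 9885259 to 19915479 after recovery. The microglial and macrophage marker Csf1r (647 to 996 CPM) was high in every library, where CPM is a count scaled to the TMM-adjusted library size, while the homeostatic marker Tmem119 had at most 41 counts in a library. After OGD, Slc2a5 had 40 to 58 counts in a WT library and 4 to 17 in a KO library, and after recovery 0 to 2 in either genotype, so it checks the labels after OGD alone. Xist, the RNA of the inactive X chromosome, had 0, 3 and 0 counts in WT-recovery and 4101 to 10232 in every other library, although all mice were labelled male. This difference in Xist cannot be told apart from genotype in KO against WT after recovery, or from recovery in the comparison of WT-recovery with WT-OGD. The other groups differed in Xist as well, by less: 151 to 159 CPM in WT-OGD, 231 to 244 in KO-OGD and 312 to 354 in KO-recovery. These differences cannot be told apart from genotype after OGD or from recovery in KO. WT-recovery replicate 1 stood apart from its group, with 18.4% mitochondrial counts against 7.346% and 7.998% in replicates 2 and 3, and a chi-square per degree of freedom of 60.2 and 50.7 against them, where they differed from each other by 6.66. Calls and signs of the 10 genes that change without it are named with the gene or among the alternative analyses. KO-recovery replicates 1 and 3 stood apart by transcripts of muscle and cartilage (Acta1 37.6, 0.98 and 36.4 CPM, Col2a1 20.9, 1.63 and 18.7 CPM in replicates 1 to 3). In bulk libraries of this kind, fewer cells of a type and less RNA per cell cannot be told apart.

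Ranked by level per length (CPM per kb of exon), the genes covered more than 3 orders of magnitude. Sat1, which encodes the acetyltransferase that marks spermidine and spermine for export or breakdown, led in all 4 groups, with 137 ± 1.04 CPM per kb in WT-OGD and 106 ± 3.86 in KO-recovery (SD, n = 3). Ass1 was next in every group, at 33.6 ± 2.17 CPM per kb in WT-OGD. Nos2 was last in every group, at 0.0518 ± 0.0159 CPM per kb in WT-OGD and at most 0.145 ± 0.0915 in WT-recovery. In WT-OGD the order was Sat1, Ass1, Odc1, Srm, Slc7a2, Asl, Arg2, Sms, Arg1 and Nos2, and the libraries of no pair of neighbours overlapped. Arg1 was ninth in both OGD groups, level with Arg2 after recovery in WT (5.52 ± 0.994 against 5.24 ± 1.01 CPM per kb, ranges overlapping), and behind only Sat1 and Ass1 in KO-recovery at 31.3 ± 1.63 CPM per kb. In KO-recovery the ranges of Sat1 and Ass1 overlapped, as did those of Odc1, Asl and Slc7a2 with their neighbours in that run. Srm and Odc1 overlapped in KO-OGD and in WT-recovery.

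**Figure D1:**
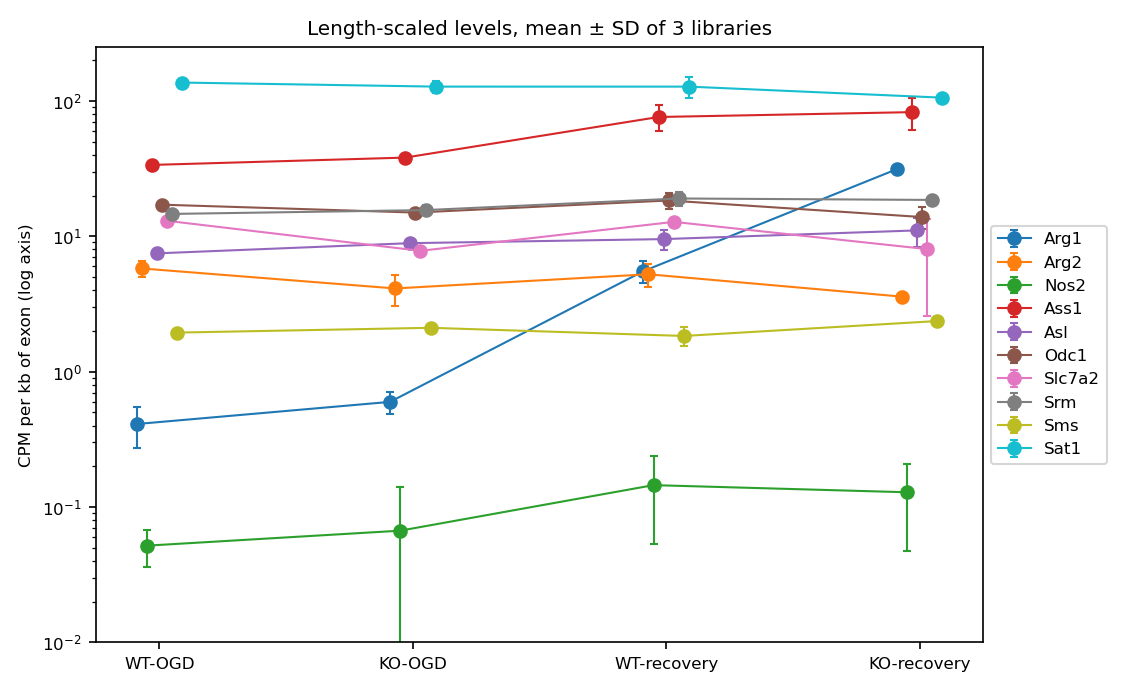
Level of each gene in CPM per kb of exon on a log axis, as the mean of 3 libraries with bars of 1 SD, in the 4 groups; the lower bar of Nos2 in KO-OGD runs past the axis because its SD exceeds its mean. Arg1 climbs from ninth place in the OGD groups to a place behind only Sat1 and Ass1 in KO-recovery (31.3 CPM per kb), while Sat1 stays at the top and Nos2 at the bottom.

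Arg1 (ENSMUSG00000019987.9, chromosome 10, 24915221 to 24927484, minus strand, GRCm38) encodes the cytosolic arginase. Straight after OGD, WT replicates 1 to 3 held 1.27, 0.77 and 0.71 CPM (52, 26 and 34 counts), and KO replicates held 1.33, 1.58 and 1.09 CPM (56, 48 and 40 counts). After recovery, WT held 11.07, 10.99 and 14.87 CPM (97, 180 and 201 counts) and KO 72.4, 71.1 and 65.5 CPM (1460, 871 and 1224 counts). The OGD groups overlapped, every recovery library was above every OGD library, and every KO-recovery library was above every WT-recovery library. In mean level Arg1 went from 0.914 ± 0.308 to 12.3 ± 2.21 CPM in WT and from 1.33 ± 0.242 to 69.7 ± 3.64 CPM in KO (SD, n = 3). That was a log2 fold change of 3.75 (SE 0.19) in WT and 5.71 (SE 0.18) in KO, or 13.5-fold and 52.5-fold. KO-recovery stood above WT-recovery by a log2 fold change of 2.50 (SE 0.15), or 5.64-fold, with a range of 2.40 to 2.65 over 21 alternative analyses. The recovery change was larger in KO by 1.96 (SE 0.28). After OGD the KO over WT log2 fold change was 0.53 (SE 0.23, adjusted p = 0.217, edgeR's quasi-likelihood test), and it passed the test without WT-OGD replicate 1 alone (0.87, adjusted p = 0.0302; range over alternatives 0.0302 to 0.548).

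**Figure D2:**
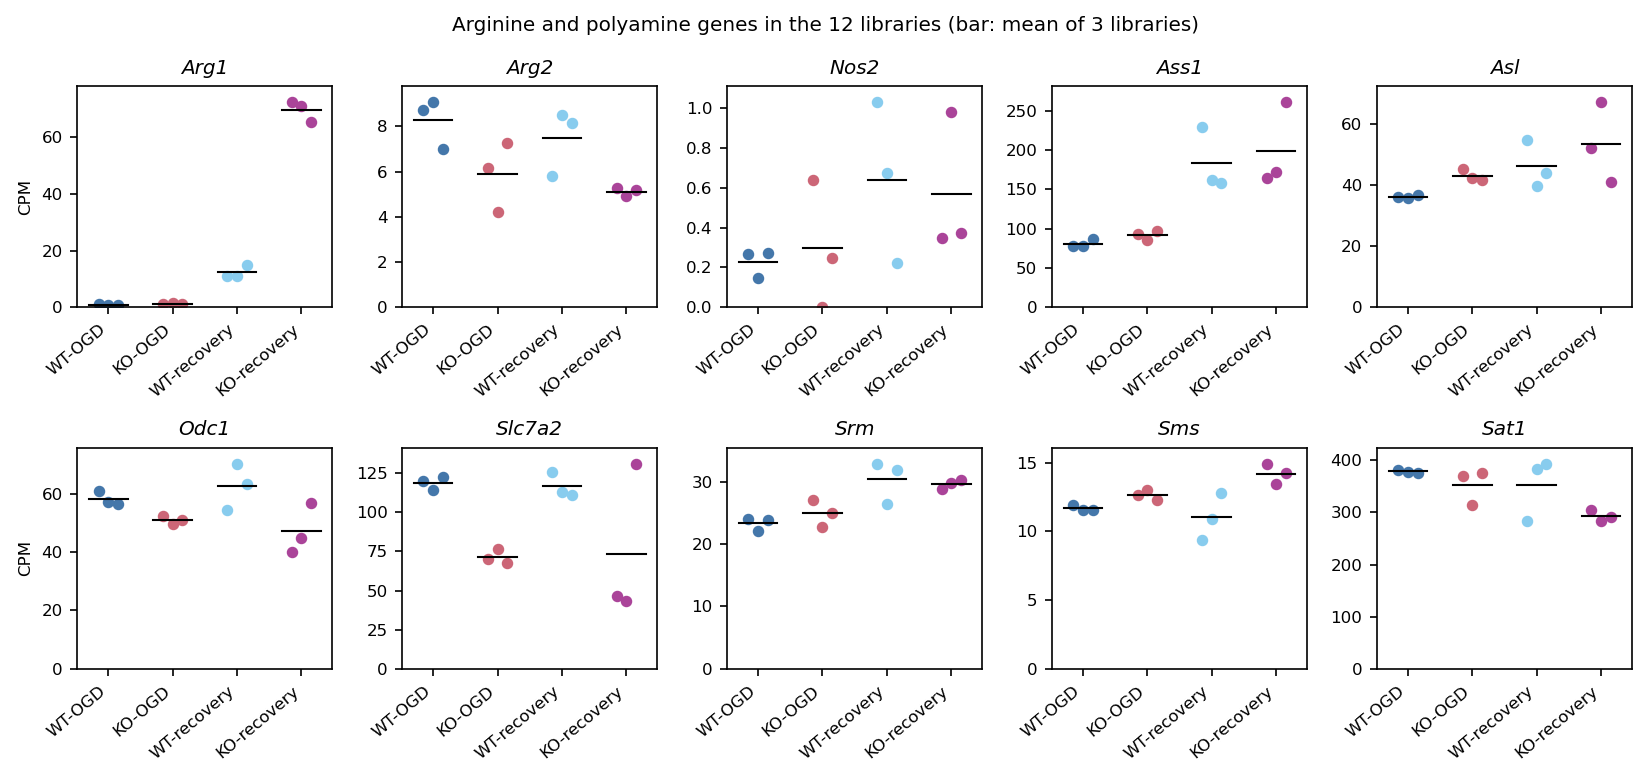
CPM of the 10 genes in each of the 12 libraries (points, replicates 1 to 3 from left to right) with the mean of each group of 3 as a bar; each panel has its own axis from 0. Arg1 reaches 65.5 to 72.4 CPM in KO-recovery against 10.99 to 14.87 in WT-recovery, and Slc7a2 replicate 3 of KO-recovery lies at 131 CPM, with the other libraries of that group at 46.3 and 43.0.

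Markers of other cells were measured in the same libraries. In KO against WT after recovery, 22.2% of all genes were called, beside which the marker counts between genotypes below stand. Of 7 border macrophage markers, 2 were called higher and 0 lower. The summed level of the 7 was 917 to 1243 CPM in WT-recovery and 1297 to 1429 CPM in KO-recovery, most of it Mrc1 (765 to 1073 and 838 to 1025 CPM). The list's Pf4, the chemokine platelet factor 4, expressed by brain border macrophages, was at 88.4, 91.6 and 60.1 CPM in WT-recovery and 235, 286 and 421 CPM in KO-recovery. F13a1, a coagulation factor transcript of the same cells, was at 2.17, 2.08 and 2.59 CPM in WT-recovery and 14.6, 14.1 and 6.91 CPM in KO-recovery. Other markers of the list overlapped between genotypes. Ms4a7 was at 76.4 to 97.4 CPM in WT-recovery and 67.8 to 96.4 CPM in KO-recovery, and Cbr2 at 3.33 to 3.43 and 3.00 to 6.89 CPM. Lyve1 had at most 8 counts and Cd163 at most 26 in a recovery library. Of 7 monocyte markers 5 were tested, with 1 higher and 1 lower in KO after recovery and a summed level of 270 to 349 CPM in WT-recovery and 282 to 313 CPM in KO-recovery, and Ly6c2 had at most 6 counts in any library. The neutrophil marker Ly6g was at 0 in all 12 libraries, and of the 7 neutrophil markers 1 was tested and not called. Of 8 connective tissue and muscle markers 5 were higher in KO after recovery, with a sum of 28.1 to 77.0 CPM in WT-recovery and 18.4 to 273 CPM in KO-recovery. Of 7 endothelial markers 4 were tested and 2 were higher in KO after recovery, with a sum of 64.6 to 82.2 CPM in WT-recovery and 120 to 131 CPM in KO-recovery, nearly all of it Flt1 (62.1 to 80.3 and 112 to 128 CPM), while Cldn5 had at most 2 counts in a library. In KO-recovery replicates 1 to 3, Acta1 was at 37.6, 0.98 and 36.4 CPM, and Arg1 at 72.4, 71.1 and 65.5 CPM. The part of border macrophages in the Arg1 difference was not tested.

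**Figure D3:**
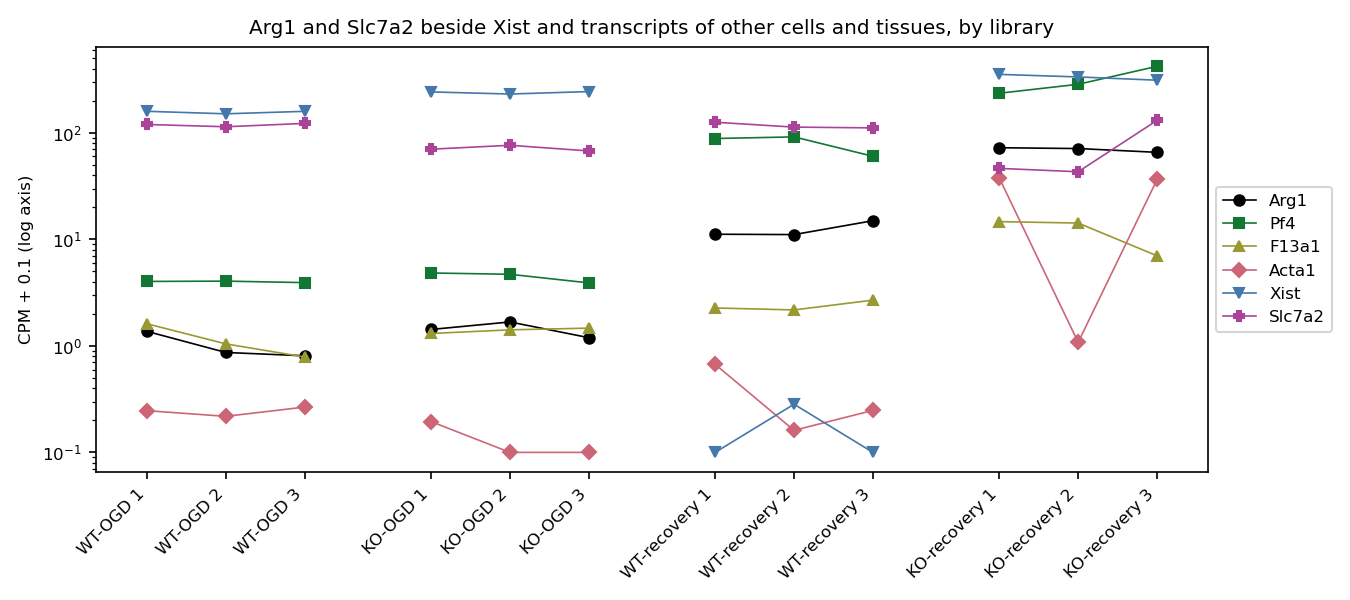
CPM plus 0.1 on a log axis in each library for Arg1, Slc7a2, the border macrophage markers Pf4 and F13a1, the muscle transcript Acta1 and Xist; lines join libraries of the same group only to guide the eye. Pf4 and F13a1, picked from 7 border macrophage markers of which others overlap between genotypes, are higher in KO-recovery than in WT-recovery, as Arg1 is. Acta1 is high in KO-recovery replicates 1 and 3 only, and Xist is at or near 0 in WT-recovery.

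Arg2 (ENSMUSG00000021125.6, chromosome 12, 79130777 to 79156301, plus strand) encodes the mitochondrial arginase. WT libraries held 8.73, 9.06 and 6.98 CPM after OGD and 5.82, 8.48 and 8.14 CPM after recovery. KO libraries held 6.15, 4.21 and 7.28 CPM and then 5.25, 4.90 and 5.19 CPM. All 3 KO-recovery libraries were below all 3 of WT-recovery, and the other pairs of groups overlapped. KO over WT log2 fold changes were -0.48 (SE 0.18, adjusted p = 0.143) after OGD and -0.56 (SE 0.21, adjusted p = 0.0612) after recovery, and recovery over OGD changes were -0.12 in WT and -0.20 in KO (adjusted p = 0.611 and 0.388). None passed the test, and the change after recovery passed it in 4 of 21 alternatives (adjusted p 0.0214 to 0.207), one of them without WT-recovery replicate 1 (-0.71, adjusted p = 0.0288). Arg2 shares 285 exon bases with Vti1b and 116 with the antisense gene Gm48780, both on the other strand, so its reads are uncertain. Vti1b lay between 55.3 and 69.9 CPM in all libraries.

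Nos2 (ENSMUSG00000020826.9, chromosome 11, 78920787 to 78960254, plus strand), the inducible nitric oxide synthase of classically activated macrophages, was near the lower end of detection. WT libraries had 11, 5 and 13 counts after OGD and 9, 11 and 3 after recovery, and KO libraries had 27, 0 and 9 and then 7, 12 and 7. The groups overlapped in every comparison and no comparison passed the test. The smallest adjusted p was 0.167, for recovery against OGD in WT, and over alternatives of that comparison it ran from 0.0465, without a low-count filter, to 0.423. With at most 27 counts in a library, no direction is read for Nos2.

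Ass1 (ENSMUSG00000076441.9, chromosome 2, 31470207 to 31520672, plus strand), the argininosuccinate synthase that takes up citrulline, rose with recovery in both genotypes. WT libraries held 77.8, 78.6 and 87.3 CPM after OGD and 229, 162 and 159 CPM after recovery. KO libraries went from 93.7, 85.6 and 96.7 CPM to 165, 172 and 261 CPM. Recovery and OGD libraries did not overlap in either genotype, while WT and KO overlapped at both times. The recovery log2 fold change was 1.17 (SE 0.17, adjusted p = 6.99e-05) in WT and 1.12 (SE 0.17, adjusted p = 9.52e-05) in KO, and both passed the test in all 21 alternatives. The WT value was 0.98 without WT-recovery replicate 1, its highest library. KO over WT was 0.18 after OGD and 0.12 after recovery (adjusted p = 0.664 and 0.649), and the latter turned to -0.12 without KO-recovery replicate 3. Asl (ENSMUSG00000025533.15, chromosome 5, 130011258 to 130029247, minus strand), the lyase of the next step that releases arginine, lay between 35.6 and 36.8 CPM in WT and 41.6 and 45.1 CPM in KO straight after OGD, and between 39.7 and 54.6 CPM in WT and 41.1 and 67.0 CPM in KO after recovery. KO-OGD and WT-recovery each lay wholly above WT-OGD. No Asl comparison passed the test, although the recovery change in WT (0.34, SE 0.14, adjusted p = 0.0575) passed it in 11 of 21 alternatives (adjusted p 0.00705 to 0.274).

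Slc7a2 (ENSMUSG00000031596.15, chromosome 8, 40862396 to 40922308, plus strand) encodes the cationic amino acid transporter CAT2, which brings arginine into macrophages. WT libraries held 120, 114 and 123 CPM after OGD and 126, 113 and 111 CPM after recovery. KO libraries held 70.1, 76.3 and 67.5 CPM after OGD and 46.3, 43.0 and 131 CPM after recovery. All KO-OGD libraries were below all WT-OGD libraries, and after recovery replicates 1 and 2 of KO were below the WT libraries while replicate 3 was above them. The KO over WT log2 fold change was -0.74 (SE 0.35, adjusted p = 0.326) after OGD and -0.66 (SE 0.36, adjusted p = 0.230) after recovery, neither past the test. Both calls depended on KO-recovery replicate 3, as the 4 groups share 1 estimate of the spread, and on the low-count filter, without which both passed the test (-0.71 after OGD and -0.64 after recovery). Without that replicate the log2 fold change passed the test both after OGD (-0.73) and after recovery (-1.38), the recovery change in KO was -0.69, and the interaction was -0.65 (adjusted p over its alternatives 0.00251 to 1.00), against an interaction of 0.08 with all libraries. A fit to the 6 OGD libraries alone also called the difference after OGD, where the adjusted p over alternatives ran from 1.95e-10 to 0.545. Astrocyte and neuron markers were also lower in KO by their sums at both times. Their part in the Slc7a2 values was not tested. All 10 astrocyte markers were called lower in KO after OGD and 7 of 10 after recovery, where 7.49% and 22.2% of all genes were called. Their summed level was 129 to 186 CPM in WT and 55.0 to 76.3 CPM in KO after OGD. After recovery it was 168 to 192 CPM in WT and 81.7 to 121 CPM in KO. Of 7 tested neuron markers 3 were lower in KO at each time, with sums of 18.4 to 25.9 CPM in WT and 5.78 to 10.3 CPM in KO after OGD, and of 35.5 to 45.9 CPM and 7.92 to 17.6 CPM after recovery. Of 8 oligodendrocyte lineage markers 2 were lower in KO after OGD and 3 after recovery, with sums of 148 to 155 and 139 to 141 CPM, then 285 to 342 and 239 to 292 CPM. Slc7a2 shares 635 exon bases with the lincRNA Gm26584 on the other strand.

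Odc1 (ENSMUSG00000011179.8, chromosome 12, 17544794 to 17551505, plus strand), ornithine decarboxylase and the first committed step of polyamine synthesis, was at 60.9, 57.3 and 56.6 CPM in the WT libraries after OGD and at 54.2, 70.2 and 63.3 CPM after recovery. In KO it was at 52.2, 49.5 and 51.1 CPM and then at 40.2, 44.7 and 56.8 CPM. KO lay wholly below WT after OGD, and after recovery KO replicate 3 reached into the WT range. The KO over WT log2 fold change was -0.19 (SE 0.11, adjusted p = 0.409) after OGD, and Odc1 was lower in KO after recovery by a log2 fold change of -0.41 (SE 0.12, adjusted p = 0.0198). The latter was lost in 5 of 21 alternatives: the fit to the 6 recovery libraries, and the fits without WT-recovery replicate 2 or 3 or without KO-recovery replicate 1 or 2 (adjusted p over all alternatives 7.17e-04 to 0.108). Recovery over OGD changes were 0.11 in WT and -0.11 in KO, and neither passed the test.

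Srm (ENSMUSG00000006442.10, chromosome 4, 148591503 to 148594993, plus strand), spermidine synthase, rose with recovery. In WT it was at 24.1, 22.2 and 23.9 CPM after OGD and at 32.9, 26.4 and 31.95 CPM after recovery, and in KO at 27.1, 22.8 and 25.0 CPM and then at 28.9, 29.9 and 30.3 CPM. Recovery libraries were above OGD libraries in both genotypes, with log2 fold changes of 0.37 (SE 0.10, adjusted p = 0.00405) in WT, called in all 21 alternatives, and 0.25 (SE 0.10, adjusted p = 0.0358) in KO, called in 13 of 21 (adjusted p 0.0107 to 0.224; lost without KO-OGD replicate 2 or 3, WT-recovery replicate 3 or any KO-recovery replicate, without KO-recovery replicates 1 and 3 together, and without the low-count filter). Genotypes overlapped at both times (0.09 after OGD and -0.03 after recovery).

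Sms (ENSMUSG00000071708.11, chromosome X, 157443855 to 157492287, minus strand), spermine synthase, was at 11.95, 11.54 and 11.54 CPM in WT after OGD and at 9.36, 10.9 and 12.8 CPM after recovery, and in KO at 12.69, 13.01 and 12.31 CPM and then at 14.9, 13.5 and 14.2 CPM. KO libraries were above WT libraries at both times. After OGD they differed by 0.12 on the log2 scale (SE 0.10, adjusted p = 0.628), and Sms was higher in KO after recovery by 0.36 (SE 0.11, adjusted p = 0.0328). That call held in 13 of 21 alternatives (adjusted p 0.0147 to 0.276) and was lost without WT-recovery replicate 1 or 2 or KO-recovery replicate 1, and in the fit to the 6 recovery libraries, among others. The processed pseudogene Sms-ps, with 5.10 to 7.44 CPM, is a copy of the Sms transcript, so reads may be split between them. Sat1 (ENSMUSG00000025283.15, chromosome X, 155213132 to 155216449, minus strand) was at 382, 378 and 376 CPM in WT after OGD and at 284, 383 and 393 CPM after recovery, and in KO at 370, 314 and 377 CPM and then at 304, 283 and 291 CPM. KO-recovery lay below KO-OGD, and the other pairs of groups compared overlapped. Sat1 fell with recovery in KO by a log2 fold change of -0.27 (SE 0.11, adjusted p = 0.0470), a call kept in 6 of 21 alternatives (adjusted p 0.00531 to 0.146), and the KO over WT change after recovery was -0.27 (adjusted p = 0.0935), or -0.42 (adjusted p = 0.00470) without WT-recovery replicate 1, the lowest of its group. Sms and Sat1 are X-linked, as Xist is, which separated WT-recovery from KO-recovery.

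**Figure D4:**
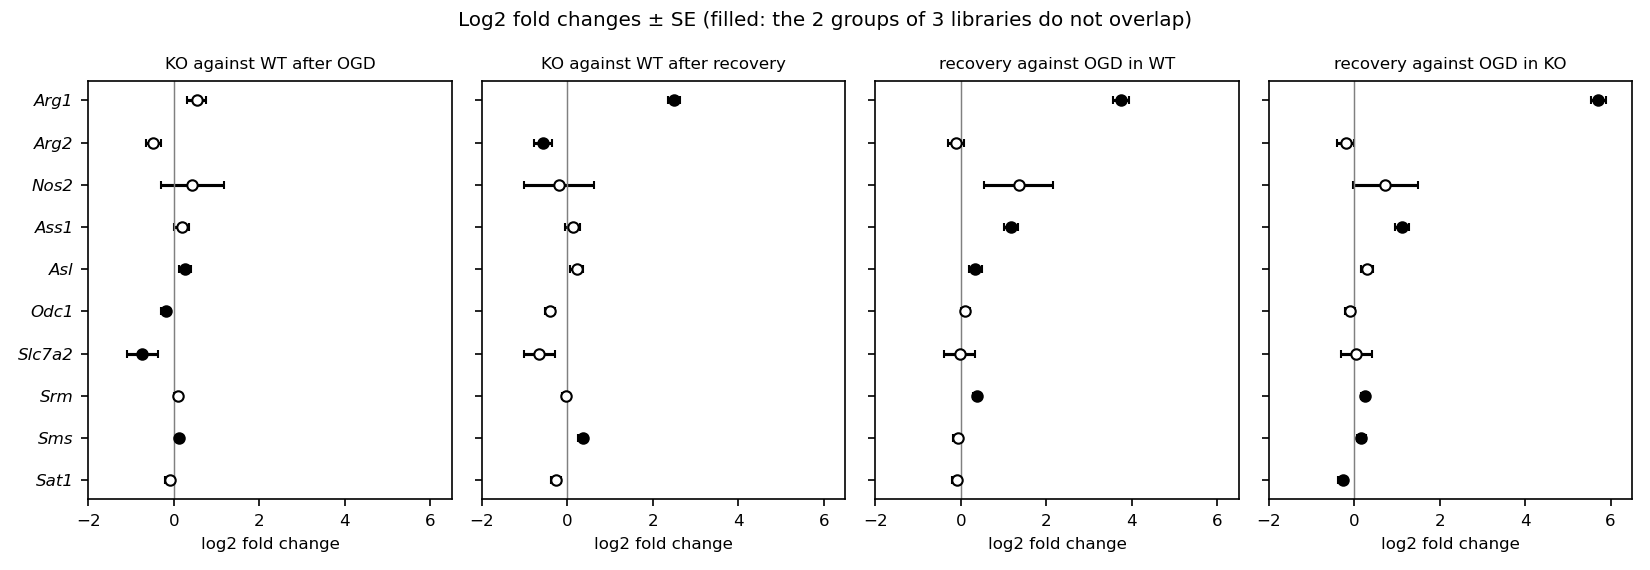
Log2 fold change (points) with SE (bars) of the 10 genes in KO against WT after OGD and after recovery and in recovery against OGD in each genotype; filled points mark pairs of groups whose libraries do not overlap. Arg1 stands out with 3.75 and 5.71 in the recovery comparisons, Ass1 follows with 1.17 and 1.12 among genes whose groups do not overlap, and Nos2 has the widest bars.

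Counted over the pathway, 0 of the 10 genes passed the test in KO against WT after OGD, where 7.49% of all 18842 genes tested did. DESeq2 called 0, and by edgeR's unadjusted p below 0.05 there were 2 (Arg1 and Arg2). Groups did not overlap for 4 of 10 (Asl and Sms higher, Odc1 and Slc7a2 lower), beside 30.4% of all genes. After recovery 3 of 10 passed (Arg1 and Sms higher, Odc1 lower), and 22.2% of all genes did. Groups did not overlap for 3 of 10 (Arg1 and Sms higher, Arg2 lower), beside 33.5% of all genes. Nothing is read from that count, since Arg1 was listed for it. Recovery against OGD called 3 of 10 in WT (Arg1, Ass1 and Srm, all higher), where 56.8% of all genes were called, and 4 of 10 in KO (Arg1, Ass1 and Srm higher, Sat1 lower), where 59.0% were. Recovery libraries lay apart from OGD libraries for 4 of 10 in WT (Arg1, Ass1, Asl and Srm), beside 67.1% of all genes, and for 5 of 10 in KO (Arg1, Ass1, Srm, Sms and Sat1), beside 61.2%. In both recovery comparisons the share among the 10 was below that among all genes. Its median log2 change was 0.22 in WT and 0.21 in KO, beside medians of all genes within 0.029 of 0 in every comparison. The recovery change differed between genotypes for 1 of 10 (Arg1), beside 5.25% of all genes. Nothing is read from this count either, since Arg1 was listed for its level in KO-recovery. Its calls in the recovery comparisons are likewise a description. The 4 comparisons share libraries and are not independent of each other.

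Of 60 further genes of the pathway in 5 lists, 51 were tested. Slc7a1, the housekeeping arginine transporter CAT1, fell from 115 ± 2.55 to 11.7 ± 0.679 CPM in WT (SD, n = 3; change of -3.30 on the log2 scale, SE 0.08, adjusted p = 3.59e-13) and from 115 ± 2.22 to 12.7 ± 0.995 CPM in KO (-3.16, SE 0.08, adjusted p = 5.83e-13). Slc7a3, a related carrier, fell by 3.37 in WT on the log2 scale, from 2.48 to 0.258 CPM, and by 2.01 in KO, from 1.83 to 0.474 CPM. Slc3a2, the heavy chain of several amino acid exchangers, fell by 1.66 in WT and by 1.90 in KO, and Gamt, which methylates guanidinoacetate to creatine, rose by 2.13 and 2.34 (both named after their values were seen). Of 14 tested genes of arginine and citrulline supply, 3 rose and 4 fell with recovery in WT, and 3 rose and 8 fell in KO, where the shares of all genes called were 56.8% and 59.0%. After OGD, Gatm, which makes guanidinoacetate from arginine, was the only gene of that list called between genotypes, higher in KO (0.72, SE 0.20, adjusted p = 0.0421, called in 11 of 21 alternatives). Of all genes, 7.49% were called between genotypes after OGD and 22.2% after recovery. After recovery 4 of the 14 tested genes were called, all lower in KO. They were Ddah2 (-1.38, adjusted p = 0.00129) and Ddah1 (-0.83), which break down methylarginines that inhibit nitric oxide synthases, the mitochondrial carrier Slc25a29 (-1.65) and the ornithine carrier Slc25a15 (-0.43, called in 7 of 21 alternatives). The last 3 were named after their values were seen.

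The other nitric oxide synthases Nos1 and Nos3 were too low to test, with at most 7 and 14 counts in a library. The synthases need the cofactor tetrahydrobiopterin. Gchfr, the feedback regulator of the cofactor's first enzyme, had 5 to 9 counts per WT library and 26 to 34 per KO library after OGD, and 0 to 2 and 21 to 26 after recovery, and was called higher in KO at both times. Qdpr, which recycles the cofactor, was lower in KO after recovery (-0.39, adjusted p = 0.0144, groups overlapping). Gchfr and Qdpr were named after their values were seen.

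In the ornithine branch towards proline and glutamate, 4 of 8 tested genes rose and 1 fell with recovery in WT, and 3 rose and 2 fell in KO, against 56.8% and 59.0% of all genes called. Oat, the ornithine aminotransferase, rose by 0.30 and 0.39. Aldh18a1, which makes the proline precursor from glutamate, fell by 1.71 in WT and by 1.87 in KO. After OGD edgeR and DESeq2 called 0 of 8 between genotypes, and 0 had an unadjusted p below 0.05, where edgeR called 7.49% of all genes. After recovery 3 of 8 were lower in KO, where 22.2% of all genes were called. Among the 3 were Glul, glutamine synthetase, by -0.55 (adjusted p = 0.00107) and Aldh18a1 by -0.36 (called in 9 of 21 alternatives). Those named here were chosen after their values were seen. Astrocytes are rich in Glul, and their markers were lower in KO as given above; their part in it was not tested.

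Of 15 tested genes of polyamine control and salvage, 7 rose and 4 fell with recovery in WT, and 4 rose and 3 fell in KO, where 56.8% and 59.0% of all genes were called. Azin1, the inhibitor of antizyme that protects ornithine decarboxylase, fell from 320 ± 17.9 to 100 ± 6.05 CPM in WT and from 339 ± 27.6 to 92.0 ± 20.7 CPM in KO (log2 fold changes -1.68 and -1.88, adjusted p = 4.30e-08 and 1.10e-08). Smox, spermine oxidase, rose by 1.10 and 1.27, to 60.6 and 60.7 CPM. Oaz1, antizyme, which sends ornithine decarboxylase to the proteasome, rose by 0.53 in WT and was lower in KO after recovery (-0.62, SE 0.11, adjusted p = 6.94e-04). Amd1, which supplies the aminopropyl group for spermidine, rose by 1.10 in WT and was lower in KO after recovery (-0.81, adjusted p = 0.0188), but has a near-identical copy in Amd2. These 4 genes were named after their values were seen. Between genotypes, 7.49% of all genes were called after OGD and 22.2% after recovery. Oaz1 and Amd1 were the 2 genes of the list called between genotypes after recovery. After OGD it was Azin2, a second antizyme inhibitor, at 3.32 ± 0.307 CPM in WT and 1.43 ± 0.499 in KO (-1.19, SE 0.27, adjusted p = 0.0129, called in 16 of 20 alternatives).

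Downstream of spermidine, the hypusine enzymes Dhps and Dohh fell with recovery while their substrate Eif5a rose. Dhps changed by -1.08 in WT and -1.16 in KO, Dohh by -1.34 and -1.60, and Eif5a by 0.60 and 0.53 (from 289 ± 6.27 to 437 ± 23.8 CPM in WT). These genes were named after their values were seen. In their list, which also holds polyamine carriers, 1 of 8 tested genes rose and 5 fell in each genotype (56.8% of all genes were called in WT and 59.0% in KO), and edgeR and DESeq2 each called 0 between genotypes at either time, with 1 gene at an unadjusted p below 0.05 each time.

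**Figure D5:**
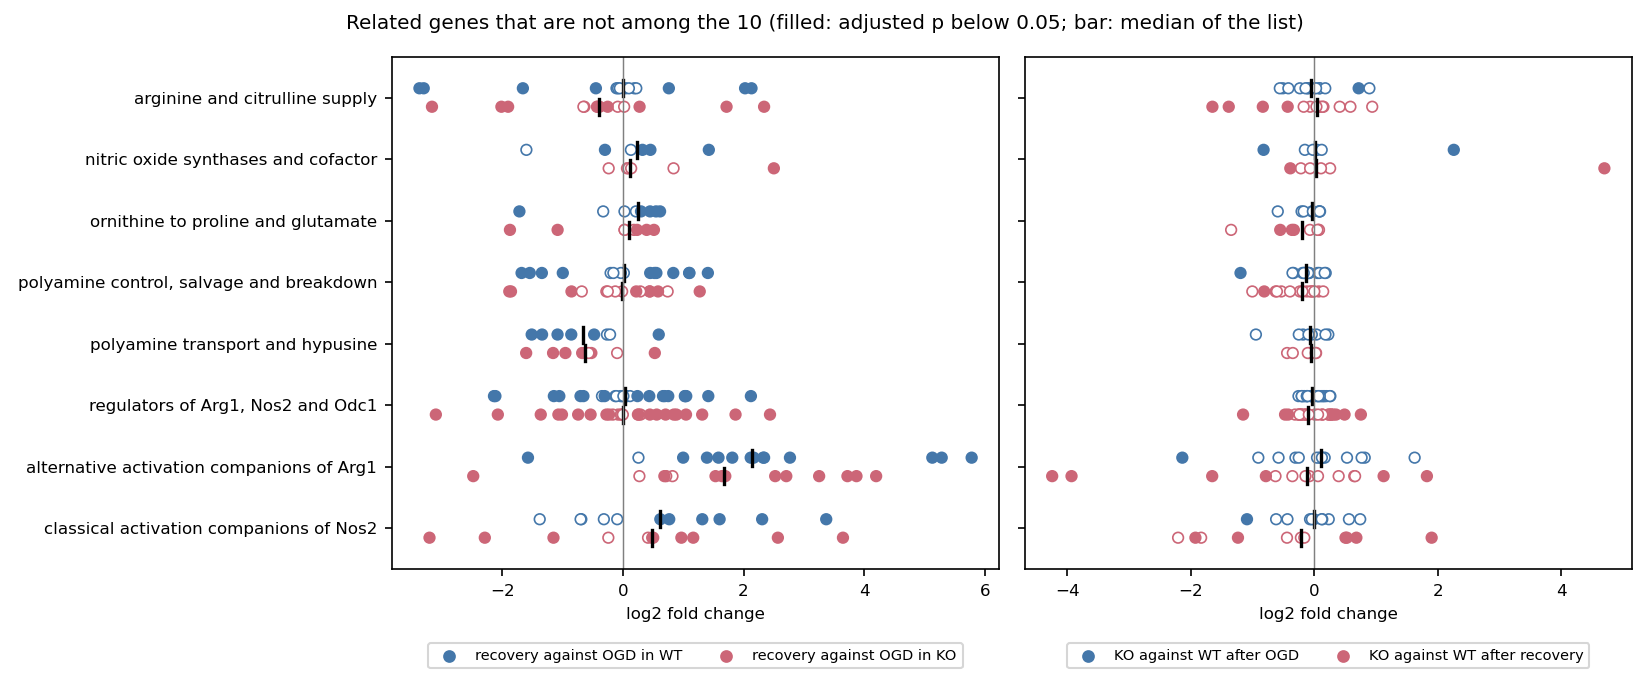
Log2 fold changes of the further genes, list by list, for recovery against OGD (left) and KO against WT (right); filled points have an adjusted p below 0.05 and black bars are list medians. List medians between genotypes lie from -0.21 to 0.11, and the companions of Arg1 have the highest medians with recovery (2.14 in WT and 1.67 in KO).

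Of 26 regulators of Arg1, Nos2 and Odc1, 10 rose and 7 fell with recovery in WT and 11 rose and 9 fell in KO, beside 56.8% and 59.0% of all genes called. After recovery 4 were higher and 3 lower in KO, beside 22.2% of all genes. After OGD edgeR called 0 between genotypes, beside 7.49% of all genes, with 3 at an unadjusted p below 0.05, and DESeq2 called 1. Cebpb, a transcription factor needed for Arg1 induction in mouse macrophages, fell with recovery in both genotypes, from 41.1 ± 2.95 to 9.60 ± 1.18 CPM in WT (-2.11, SE 0.18, adjusted p = 2.41e-07) and from 36.7 ± 6.70 to 4.33 ± 1.32 CPM in KO (-3.10, SE 0.19, adjusted p = 8.69e-09), and was lower in KO after recovery (-1.15, SE 0.21, adjusted p = 0.00170). Stat6, the factor downstream of interleukin 4, was higher in KO after recovery by 0.31 and its receptor chain Il4ra rose by 1.03 in WT and 1.05 in KO. Irf8, a myeloid factor, was higher in KO after recovery by 0.76, from 93.5 ± 10.3 to 158 ± 17.5 CPM. Atf4, the factor of the amino acid response, fell by 2.13 in WT and by 2.07 in KO, and Hif1a, the hypoxia factor, fell by 1.14 and by 1.36. All but Cebpb were named after their values were seen.

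Genes known to accompany Arg1 in alternative activation rose with recovery, 12 of 14 tested in WT and 10 of 14 in KO, with 1 falling in each, beside 56.8% and 59.0% of all genes called in either direction. Between genotypes after recovery, 2 of 14 were higher and 4 lower in KO, beside 22.2% of all genes called. The chemokine genes Ccl17 and Ccl22 were at 49.7 ± 6.80 and 39.7 ± 22.7 CPM in WT-recovery and at 3.14 ± 2.50 and 2.02 ± 0.645 CPM in KO-recovery (log2 fold changes -3.93 and -4.24, adjusted p = 1.03e-04 and 3.47e-04). The lectin gene Mgl2 was lower in KO as well (-1.65, adjusted p = 0.0232, called in 16 of 21 alternatives). Clec10a, a lectin of the same family, rose by 2.34 in WT and 3.25 in KO. Chil3, the chitinase-like marker Ym1, was lower in KO after OGD (15.1 ± 1.02 against 3.42 ± 0.242 CPM, -2.13, adjusted p = 1.62e-05) and rose by 1.81 in WT and by 3.87 in KO. Fn1, fibronectin, rose by 2.17 in WT, from 113 ± 34.8 to 511 ± 192 CPM, and by 4.20 in KO, from 60.6 ± 21.01 to 1112 ± 125 CPM. Retnla had 0 counts in all libraries.

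Of 11 tested genes that accompany Nos2 in classical activation, 6 rose and 1 fell with recovery in WT, and 5 rose and 3 fell in KO, beside 56.8% and 59.0% of all genes called. After recovery 3 were higher and 2 lower in KO, beside 22.2% of all genes. Il1b, interleukin 1 beta, rose by 3.37 in WT and 2.57 in KO and was lower in KO after recovery (13.6 ± 3.61 against 5.79 ± 2.24 CPM, -1.23, adjusted p = 0.00180). Ptgs2, cyclooxygenase 2, was lower in KO after OGD (-1.09, adjusted p = 0.0335, called in 13 of 20 alternatives) and after recovery (-1.92, adjusted p = 0.00214). Ccl5, a chemokine, was higher in KO after recovery (6.64 ± 2.95 against 24.2 ± 5.04 CPM, 1.90, adjusted p = 1.63e-04).

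Among 11436 genes with a mean of at least 5 CPM, the profiles most like Arg1 over the 12 libraries, by the root mean square difference of centred log2 CPM, were Saa3 (0.44), Pf4 (0.51), Slco4a1 (0.59), the lincRNA Gm6093 (0.63) and Ccl2 (0.65). Saa3, an acute phase protein of macrophages, had group means of 4.40 CPM in WT and 4.14 CPM in KO after OGD, and of 60.8 and 296 CPM after recovery. The profiles most like Odc1 were Hprt (0.079), Ywhae (0.084), Cggbp1 (0.087), Slc35c2 (0.092) and Rpe (0.093). This difference is not scaled by the spread of a gene, so genes that vary little, as Odc1 does, have small values. Its size is therefore not compared between Arg1, Odc1 and Nos2. For Nos2, whose own profile rests on at most 27 counts, they were Ch25h (0.48), Ifit3 (0.54), Isg15 (0.58), Dlgap5 (0.61) and Ccnf (0.66).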

How the data were processed

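The deposited table holds the authors' raw counts, 1 whole number per gene and library, not normalized, for 12 libraries. HISAT2, featureCounts and GRCm38 were used per the submitters' processing notes; versions, annotation release and counting options (strand, multiply mapped reads) are not given in the sources used here, so genes that overlap or have close copies are marked as uncertain. Libraries were made with a stranded total RNA kit per the labels' protocols, although the molecule field named polyA RNA. Of 55421 identifiers, 54673 matched GENCODE M21 with their version and 55240 without it.

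Counts were analysed with edgeR 4.0.16 in R 4.3.3: filterByExpr (18842 genes kept), TMM factors, and the robust quasi-likelihood test over all 12 libraries with 1 mean per group, Benjamini-Hochberg adjustment over all genes tested and a threshold of 0.05. The common biological coefficient of variation was 0.119. SE is the log2 fold change over the root of its F statistic. CPM uses TMM-scaled library sizes, and likeness of profiles, given for Arg1, Nos2, Odc1 and later Slc7a2, a prior count of 2. On simulated data, 85% and 76.5% of 200 genes changed by 1 on the log2 scale were recovered, with 12 and 9 false calls, in KO against WT after OGD (18366 genes) and after recovery (18331 genes). Apart from these changes, each simulated gene had 1 mean over all 12 libraries. The simulation held no recovery change and no library that stood apart, so its rates need not hold for the data. Replicate pairs differed by more than sampling noise (chi-square per degree of freedom 6.66 to 60.2), so each library counted as 1 sample. Depths of 9885259 to 45347118 counts limit low genes, most after recovery. Members and lists were chosen with earlier results of these data known. All 10 members are named; a few other genes are counted in their lists but not reported here by name. From the related lists, in each of 4 comparisons, at most 8 called genes were named by size of log2 fold change, with a mean of at least 1 CPM and groups that do not overlap; others are marked as named after their values were seen. Alternatives were RLE factors, DESeq2 1.42.0, no filter or a mean of at least 5 CPM, the libraries compared alone, a replicate block, thinning to 9885259 counts, leaving out mitochondrial genes, leaving out KO-recovery replicates 1 and 3, and leaving out each library.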

Additional observations from a re-analysis of the deposited data

Results flagged for a closer look

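For 11 reported genes of the pathway and its related lists, the change with recovery differed between genotypes by the interaction term of edgeR's quasi-likelihood test over all genes. Of all genes tested, 5.25% passed. Values are the log2 change with recovery in KO minus the same change in WT. Arg1 passed the threshold at 1.9625 (recovery change 3.75 in WT and 5.71 in KO); it was listed for its level in KO-recovery, so this gives no independent support. Among genes that accompany alternative activation, Ccl22 was at -5.0602 (adjusted p = 0.00689), Ccl17 at -4.4603 (adjusted p = 0.00303), Chil3 at 2.0577 (adjusted p = 5.20e-04), Fn1 at 2.0286 (adjusted p = 0.0342) and Tgm2 at -0.9068 (adjusted p = 0.0139). Ccl17 and Ccl22 rose by 5.28 and 5.78 in WT, and their changes in KO were 0.82 and 0.72. Chil3 rose by 1.81 in WT and 3.87 in KO, from a lower level in KO after OGD. Among regulators, Irf8 was at 0.7876 (adjusted p = 0.00332), Cebpb at -0.9866 (adjusted p = 0.0448) and Myc at -0.4717 (adjusted p = 0.0308). Oaz1 was at -0.5368 (adjusted p = 0.0449) and Socs3, a feedback inhibitor of cytokine signalling, at 0.5452 (adjusted p = 0.0195). Arg1, Chil3, Ccl17, Irf8 and Tgm2 passed in every alternative run; Ccl22, Cebpb, Fn1, Myc, Oaz1 and Socs3 missed the threshold in at least 1 of them. All 11 rest on WT-recovery libraries that also differ from the others in Xist.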

How the results depend on the processing

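Over 165 results for single genes, 3421 alternative analyses kept the direction and the side of the threshold in 3113 cases, lost the call in 251, gained it in 32 and changed sign in 25. The cause of these shifts was not tested. Genes called in KO against WT after OGD numbered 1411, against 2148 without a filter, 501 at a mean of at least 5 CPM, 647 after thinning and 524 to 1742 with 1 library left out. After recovery they numbered 4175, against 2756 with the 6 libraries alone and 2653 to 5279 with 1 left out, and for the interaction 989, against 1517 by DESeq2, 1980 without a filter, 548 after thinning and 479 to 1770 with 1 left out. Pathway genes called after OGD were 0, against 1 without a filter, 2 with the 6 libraries, 1 without the 2 KO-recovery libraries holding muscle transcripts and 0 to 1 with 1 left out. After recovery they were 3, against 1 with the 6 libraries and 1 to 5 with 1 left out. In recovery against OGD they were 3 in WT, against 5 without a filter, and 4 in KO, against 2 to 5 with 1 left out. For the interaction they were 1, against 2 without the 2 libraries and 1 to 2 with 1 left out. Among these results, signs changed as follows. Nos2 in KO against WT ran from -0.8017 to 0.9523 after OGD and from -0.7461 to 0.1869 after recovery with 1 left out, and was 0.6882 after recovery without the 2 libraries. Slc7a2 in WT recovery (-0.03) was 0.0161 by RLE, 0.0177 by DESeq2, 0.0233 at 5 CPM, 0.0071 with the 6 libraries, 0.0362 without mitochondrial genes and -0.0896 to 0.0049 with 1 left out. In KO recovery (0.05) it was -0.014 without a filter, -0.7525 without the 2 libraries and -0.6862 to 0.295 with 1 left out, and its interaction (0.08) was -0.7056 and -0.6498 to 0.3326. Ass1 in KO against WT after recovery was -0.0901 without the 2 libraries and -0.122 to 0.3038 with 1 left out. With 1 left out, Srm after recovery ran from -0.1353 to 0.0173, and in WT recovery Arg2 ran from -0.2275 to 0.0056, Sms from -0.2004 to 0.0124 and Sat1 from -0.1916 to 0.0291. The interactions of Arg2, Asl, Ass1 and Nos2, none called, also took both signs. Low counts limit Nos2 and Gchfr.

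Replicate numbers did not pair the samples: 1 of 18 correlations between same-numbered libraries of different groups was over 0.1 (range -0.228 to 0.156). With the replicate block, 657 genes were called for the interaction, and Slc7a2 was at -0.053 for recovery in KO and -0.0337 for the interaction.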

Other observations

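Genes with the profile most like that of Slc7a2 over the 12 libraries, looked up after its values were seen, were Hmgn5 (0.23), Skil (0.24), H2afz (0.26), Pkig (0.28) and Chml (0.28), by the same root mean square difference. Other genes noticed in KO-recovery replicate 3 were chosen for standing apart there. Plet1, a membrane protein gene, was at 72.6 to 85.8 CPM in WT and 25.6 to 30.2 CPM in KO after OGD, and after recovery at 196 to 284 CPM in WT and at 55.8, 50.1 and 204 CPM in KO replicates 1 to 3. Id1, an inhibitor of helix-loop-helix factors and a target of BMP signalling, was at 21.5 to 26.3 CPM in WT-recovery and 6.00, 5.47 and 20.9 CPM in KO-recovery, and Id3 at 29.1 to 39.2 CPM and 2.43, 1.71 and 15.5 CPM. In these 3 genes, as in Slc7a2, replicate 3 lay nearer to the WT-recovery libraries than replicates 1 and 2 did, or within their range, while its Arg1 level (65.5 CPM) lay with those 2 replicates and its Xist level (312 CPM) was that of a KO-recovery library.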
